A study of Aspergillus niger with 6 samples.

Results

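Genes for the uptake of amino acids, peptides, ammonium and nucleobases were compared between an Aspergillus niger strain that lacks rpnR and its control strain MA234.1. A gene was taken as a member when its deposited domain annotation held AA_permease, AA_permease_2, Aa_trans, OPT, PTR2, Ammonium_transp or Transp_cyt_pur, and 119 of the 11910 genes in the table did. The first 2 of these domains always came together, in 64 genes, and are treated as 1 family, called AA_permease below. Aa_trans held 23 genes, OPT 12, Transp_cyt_pur 12, PTR2 4 and Ammonium_transp 4, and no gene belonged to more than 1 of these 6 families.

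By its title the series takes rpnR for a likely transcription factor under the control of FlbA, and links the gene to protein secretion and stress resistance. Both strains were grown from conidia for 16 h at 30 °C in shaken Transformation Medium with 1% glucose, and the mycelium was then kept for 4 h in Minimal Medium with 25 mM xylose. The labels name 3 libraries of each strain, whereas the design text speaks of duplicates. No further genotype of MA234.1 is given in the sources used here, nor whether the deletion strain is 1 isolate. The deposited table holds 1 value per gene and strain, the authors' own, read here as FPKM (sequenced fragments scaled by transcript length and by library size). Hence a value comes with neither an error nor a replicate number, the depth is unknown, and the only test of a difference is the authors' q-value. The deleted gene could not be found in the table by its symbol or by the number used in the titles, so its own level gives no check of the strains. Mycelium was measured in bulk, where fewer cells of a type and less RNA per cell cannot be told apart.

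Filamentous fungi take up amino acids through proton-driven permeases with many membrane spans, most of which belong to the AA_permease type. Aa_trans proteins include carriers that, in yeast, move amino acids across the vacuole membrane. PTR2 proteins carry di- and tripeptides, OPT proteins carry longer peptides and, in some cases, glutathione or metal chelates, and Ammonium_transp proteins are the Mep and Amt channels for ammonium. Transp_cyt_pur proteins take up cytosine, purines, uracil or allantoin. Many such genes are known in Aspergillus to respond to the nitrogen source through the GATA factor AreA, whose partner NmrA restrains it.

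Of the 97 members that the authors tested, 8 passed at a q under 0.05 by the authors' deposited table, 7 of them lower and 1 higher in the deletion strain. That is 8.25% of the tested members, beside 6.54% of all 9234 tested genes, so the number of calls lay near the background. By direction, 7.22% of tested members fell, beside 3.25% of all tested genes, and 1.03% rose, beside 3.29%. The fallen genes were 2 of the AA_permease family, 2 of Aa_trans, 2 of OPT and 1 of PTR2. None of 4 tested ammonium transporter genes and none of 10 tested Transp_cyt_pur genes was called, numbers too small to set against a background of 6.54%. At a q under 0.01, 3 of the 97 tested members fell and none rose, whereas 1.38% of all tested genes fell and 1.21% rose. At a q under 0.1, 7 of the 97 fell and 2 rose, whereas 4.58% of all tested genes fell and 4.83% rose.

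**Figure D1:**
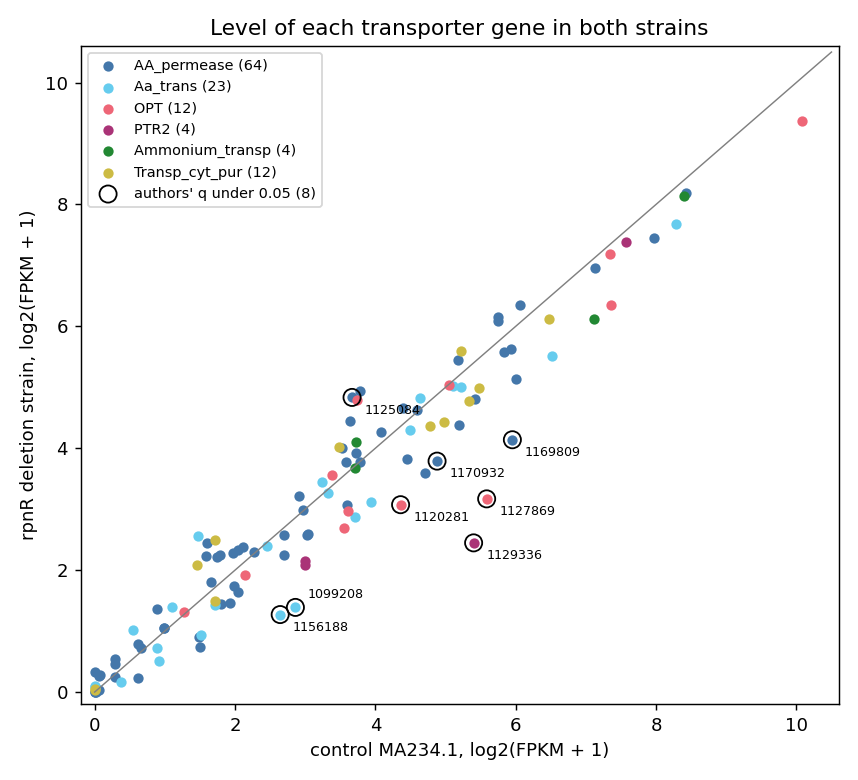
Level of each of the 119 transporter genes in the control (horizontal axis) and in the rpnR deletion strain (vertical axis), both as log2(FPKM + 1), with 1 point per gene, the colour giving the family and the grey line marking equal values. The 8 genes with an authors' q under 0.05 are ringed and numbered; 7 lie below the line and 1 above it.

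The smallest family with a call, PTR2, held the steepest fall of all members. With 1 call among 4 genes, it is too small to set against the 3.25% of all tested genes that fell. The di- and tripeptide carrier gene 1129336 fell from 41.2 to 4.45 FPKM, a 9.26-fold lower value, with a q of 0.0027 in the authors' deposited table. It stood at rank 23 of the 119 members in the control and at rank 68 in the deletion strain. The other 3 PTR2 genes also had lower values and were not called. Gene 1118545, by far the most abundant of the family, was at 189.6 FPKM in the control and 166 FPKM in the deletion strain. Genes 1157647 (7.02 and 3.25 FPKM) and 1146247 (6.95 and 3.42 FPKM), named after their values were seen, were both more than 2-fold lower without passing. In the deletion strain 1118545 held 93.7% of the summed PTR2 level, against 77.5% in the control.

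Among the 12 oligopeptide transporter genes of the OPT family, 2 fell and none rose. Over all tested genes 3.25% fell and 3.29% rose, and a family of 12 is too small to set against those shares. Gene 1127869 fell from 47.0 to 7.996 FPKM, 5.88-fold, with a q of 0.0027 in the authors' deposited table. Gene 1120281 fell from 19.5 to 7.42 FPKM, 2.63-fold, with a q of 0.0131 in the authors' deposited table. Altogether 9 of the 12 OPT genes lay below the control, with a family median of the log2 ratio of -0.43 (log2 of deletion over control, after adding 1 FPKM to each), beside 0.02 over all tested genes.

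The most abundant of all 119 transporter genes in both strains was also an OPT gene, 1161167. Its level was 1080 FPKM in the control, rank 166 of all genes in the table, and 663 FPKM in the deletion strain, rank 238. This 1.63-fold lower value was not called, with a q of 0.669 in the authors' deposited table. By the mean of both strains the next OPT gene was 1180615, at 161.7 and 145 FPKM. Gene 1141926, picked out with its values known, was slightly above it in the control, at 162.4 FPKM, and at 80.3 FPKM in the deletion strain. Neither was called. In the other direction, 1127600 was the highest, at 12.4 and 26.8 FPKM, with a q of 0.149 in the authors' deposited table.

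**Figure D2:**
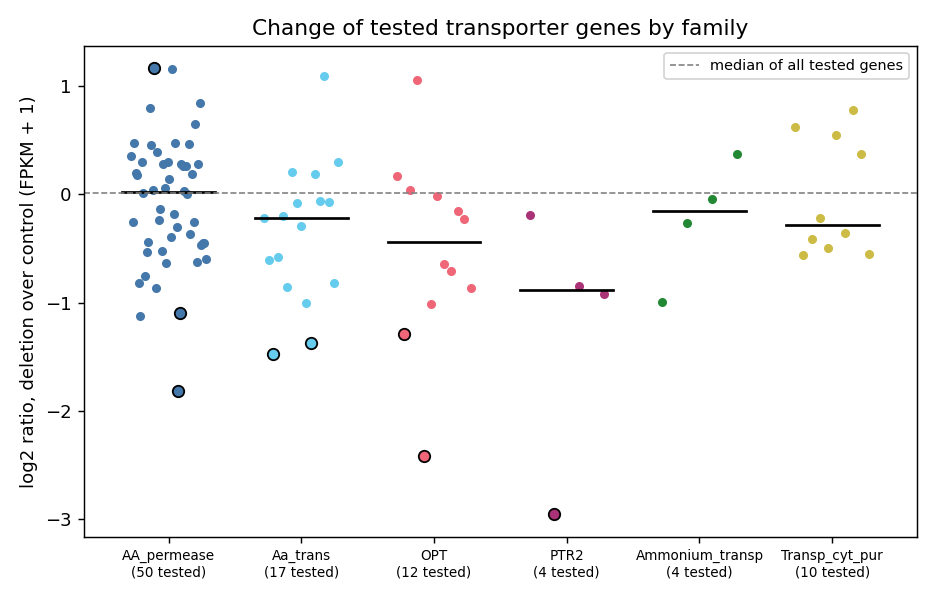
Log2 ratio of deletion over control, after adding 1 FPKM to each value, for the 97 tested members by family; each point is 1 gene, black edges mark an authors' q under 0.05, black bars are family medians and the dashed line is the median of all tested genes. The PTR2 and OPT medians of -0.88 and -0.43 lie below that line, and the AA_permease median of 0.02 lies on it.

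The AA_permease family, the large group of amino acid permeases, was spread evenly around the control. Of its 50 tested genes, 23 had lower and 27 higher values (27 lower with upper quartile scaling), and the median log2 ratio was 0.02, the same as over all tested genes to 2 decimals. Calls were made for 3 of the 50 (6%), near the 6.54% of all tested genes. Gene 1169809 fell from 60.9 to 16.6 FPKM, 3.67-fold, with a q of 0.0027 in the authors' deposited table. Gene 1170932 fell from 28.4 to 12.8 FPKM, 2.22-fold, with a q of 0.0284 in the authors' deposited table. The single rise among all members was also in this family: 1125084 went from 11.7 to 27.5 FPKM, 2.35-fold, with a q of 0.0346 in the authors' deposited table. An uncalled member of nearly the same size, 1159103, picked out with its values known, was at 12.7 and 29.5 FPKM. The size of a change did not fix the call, since that gene had a q of 0.459 in the authors' deposited table.

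The 2 amino acid permease genes that were most abundant kept their places among the 119 members, at lower values. Gene 1141872 was at 342 FPKM in the control and 290.4 FPKM in the deletion strain, the second highest of all members in both. Gene 1143324, a member of secondary metabolism cluster 23 by the file, was at 249.6 and 173 FPKM, rank 5 of the members in both strains. Among all genes, 1141872 went from rank 435 to 511 and 1143324 from 577 to 828. Neither was called. At the other end, 13 of the 64 genes were under 1 FPKM in both strains and 2 of these were listed at 0 in both. The file lists AA_permease before AA_permease_2 for 23 genes (median log2 ratio -0.18 over 18 tested) and after it for 41 (0.12 over 32 tested); the sources used here do not say what this order means.

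In the Aa_trans family 2 of 17 tested genes fell, both at low levels, and none rose. Over all tested genes 3.25% fell and 3.29% rose, and 17 genes are too few to set against those shares. Gene 1099208 fell from 6.26 to 1.62 FPKM, 3.87-fold, with a q of 0.0179 in the authors' deposited table. Gene 1156188 fell from 5.25 to 1.41 FPKM, 3.71-fold, with a q of 0.0202 in the authors' deposited table. Neither meets the authors' own combined flag, which also asks for 10 FPKM or more in 1 strain. The median log2 ratio was -0.21 over the 17 tested Aa_trans genes, of which 13 lay below the control.

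Levels in the Aa_trans family were led by 1 gene, 1093022, at 311 FPKM in the control and 204 FPKM in the deletion strain, where it made up 53.0% and 49.9% of the family's summed level. The runner-up, 1143752, was 2.03-fold lower, at 90.5 and 44.6 FPKM. The file places these 2 genes in secondary metabolism clusters 47 and 29, and neither was called. Gene 1185542 had the highest ratio, 1.78 FPKM in the control and 4.93 FPKM in the deletion strain, and with a q of 0.0860 in the authors' deposited table it was the member closest to the threshold without passing. Among genes reaching 5 FPKM the highest ratio was that of 1109943, at only 8.48 and 9.92 FPKM. The 1 member with a vesicular amino acid transporter name of the SLC32A type, 1108007, named outside the rule, was at 21.6 and 18.6 FPKM.

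**Figure D3:**
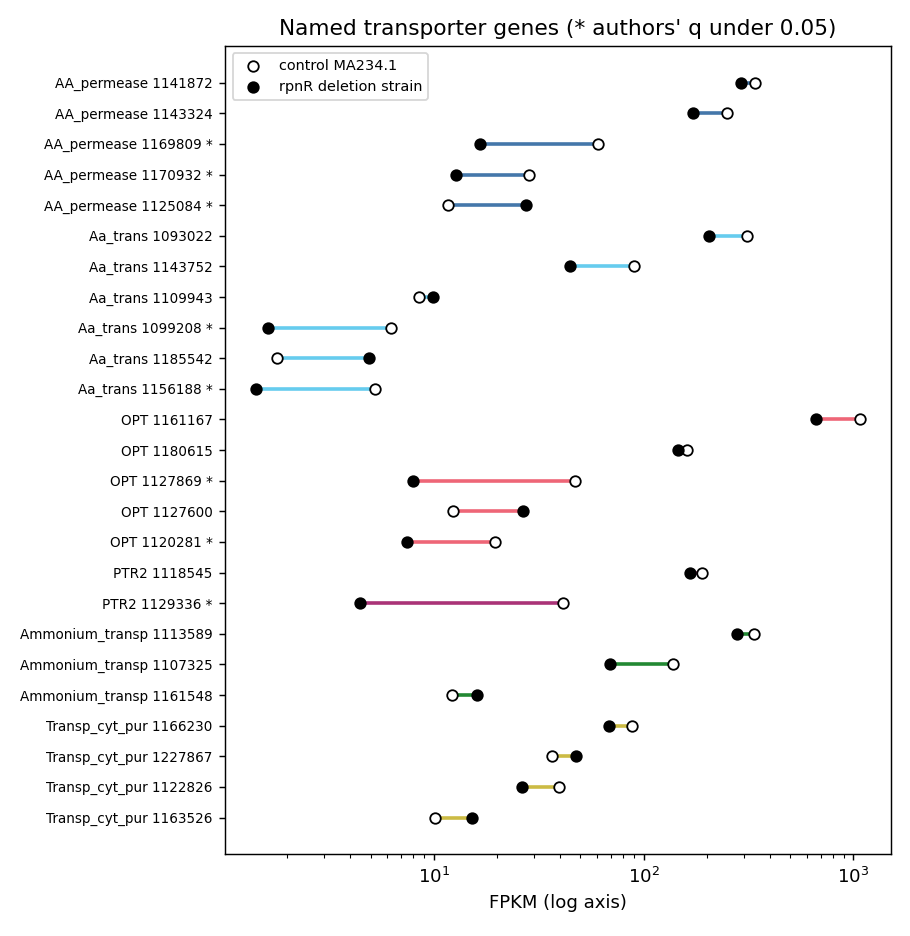
Level of the 25 transporter genes named by the fixed rule, with 1 row per gene, the horizontal log axis in FPKM, open points for the control, filled points for the deletion strain and the colour of the joining line for the family; stars mark an authors' q under 0.05. The longest line is that of PTR2 gene 1129336, from 41.2 to 4.45 FPKM.

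The 4 ammonium transporter genes showed no called change. Gene 1113589 was the most abundant, at 336 FPKM in the control and 279 FPKM in the deletion strain, the third highest of all members in both. Gene 1107325 was 2.005-fold lower, at 138 and 68.9 FPKM, with a q of 0.107 in the authors' deposited table. Gene 1161548 was at 12.2 and 16.2 FPKM. The remaining gene, 1149975, named outside the rule, was at 12.1 and 11.7 FPKM; its model also carries a zinc cluster and a fungal transcription factor domain.

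The Transp_cyt_pur genes, for carriers of nucleobases and related compounds, also showed no call. Of 10 tested genes, 6 had lower and 4 higher values, all within a log2 ratio of -0.56 to 0.78. Gene 1166230 led the family at 87.7 FPKM in the control and 68.4 FPKM in the deletion strain. Gene 1227867 was second by the mean of both strains, with a higher value in the deletion strain, at 36.4 and 47.5 FPKM. The lowest ratio among genes reaching 5 FPKM was that of 1122826, at 39.5 and 26.4 FPKM, and the highest that of 1163526, at 10.1 and 15.2 FPKM.

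Counted by size of change alone, 16 of the 97 tested members were at least 2-fold lower and 6 of the 97 at least 2-fold higher in the deletion strain. Over all tested genes, 7.10% were at least 2-fold lower and 8.17% at least 2-fold higher. All 8 called members differed by at least 2-fold. The authors' combined flag asks for a q no higher than 0.05, at least a 2-fold change and 10 FPKM or more in 1 strain. It held for 6 of the 97 tested members, beside 5.46% of all tested genes.

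Summed over the 119 genes, the level was 4726 FPKM in the control and 3558 FPKM in the deletion strain, or 75.3% of the control. Over all genes in the table the sum was 105% of the control, so the members' share went from 0.571% to 0.408%. Each of the 6 families had a lower sum. OPT stood at 63.8% of the control, Aa_trans at 69.8%, PTR2 at 72.5%, Ammonium_transp at 75.5%, Transp_cyt_pur at 84.9% and AA_permease at 87.3%. The uncalled gene 1161167 alone made up 35.7% of the net difference, and the 5 largest losses, all of uncalled genes, made up 64.3%. Without 1161167 the members' sum was 79.4% of the control and that of OPT 69.4%. These sums come with no error.

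**Figure D4:**
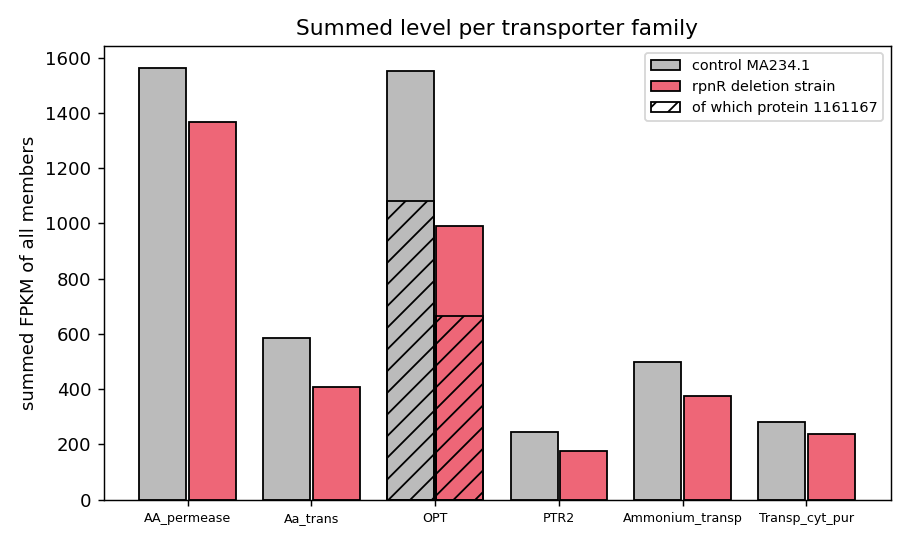
Summed FPKM of all members of each family in the control (grey) and the deletion strain (red), with hatching for the OPT gene 1161167; the vertical axis starts at 0. The OPT bars stand at 1552 and 991 FPKM, and in all 6 families the deletion bar is the lower one.

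In the classes of level used here, more of the abundant members had lower values, a split made after the values were seen. All 10 tested members with a mean over both strains of 100 FPKM or more had lower values in the deletion strain, with a median log2 ratio of -0.40. They were 3 AA_permease, 1 Aa_trans, 3 OPT, 1 PTR2 and 2 Ammonium_transp genes, and none of them was called. In the same class, 42.4% of all 1308 tested genes had lower values (median 0.09), and 8 of 16 genes with the sugar or major facilitator domains Sugar_tr or MFS_1 did. From 20 to 100 FPKM, 19 of 28 members were lower, beside 48.4% of all tested genes. From 5 to 20 FPKM it was 15 of 29, beside 53.5%, and under 5 FPKM 14 of 30, beside 46.1%. With the class opened at 50 FPKM, 14 of 17 members were lower, so the share depends on where the class begins.

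**Figure D5:**
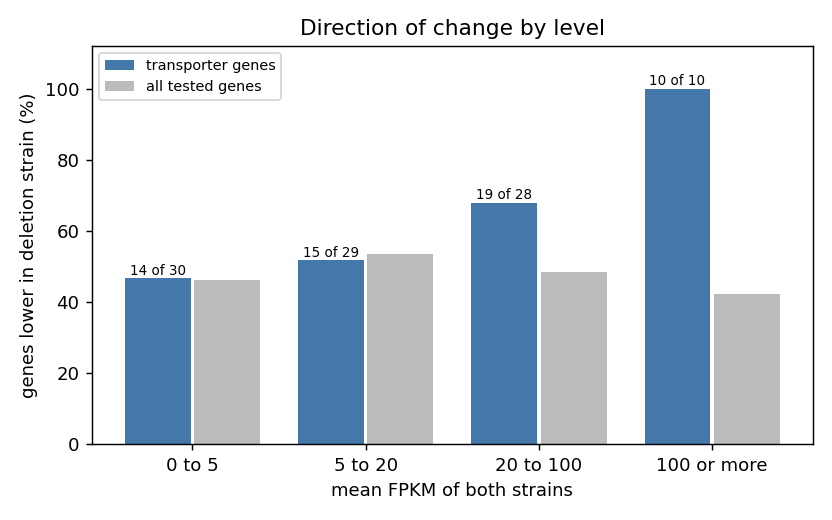
Share of tested genes with a lower value in the deletion strain, in percent, for 4 classes of mean FPKM over both strains; blue bars are transporter genes, with their counts, and grey bars all tested genes. The share of transporter genes goes from 46.7% in the lowest class to 100% in the highest, where 42.4% of all tested genes were lower.

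The members, chosen by transporter domains, shared a membrane architecture, a trait that is not independent of that choice. Membrane spans were not compared with those of other genes. All 119 had predicted transmembrane domains, 113 of them 10 or more, with family medians from 10 for PTR2 to 13.5 for OPT, and none had a predicted secretion signal. The most changed gene, 1129336, had 9 predicted spans, against 11 for the most abundant PTR2 gene 1118545. The file places 13 members in secondary metabolism clusters (10 AA_permease, 2 Aa_trans and 1 OPT). Only 10 of these 13 were tested and none was called, a number too small to set against a background of 6.54%. Another domain was present in 5 members. The 22 members without a test were low in both strains, at 1.06 FPKM or less.

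Sugar and other major facilitator transporter genes gave calls in both directions. Of 308 tested genes with a Sugar_tr or MFS_1 domain, 14 rose (4.55%, beside 3.29% of all tested genes) and 17 fell (5.52%, beside 3.25%). Their median log2 ratio was 0.11, against -0.20 for the 97 tested members. The difference between these groups was not tested, as genes are not replicates of a strain.

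Other genes of nitrogen supply and permease traffic were taken from lists fixed by domain and product name. None of 15 tested genes with arrestin or HECT domains, whose yeast relatives mark permeases with ubiquitin for removal from the membrane, was called. None of 7 GATA factor genes, the class of AreA, was called either, and their log2 ratios lay between -0.30 and 0.12. Lists of 15 and 7 genes are too small to set against a background of 6.54% of all tested genes. Of 40 tested genes with the NmrA domain, 5 rose (12.5%, beside 3.29% of all tested genes) and 1 fell (2.5%, beside 3.25%). These counts of calls are small too, and the difference from all tested genes was not tested. Gene 1084957 rose from 1.14 to 12.8 FPKM. The most abundant of the 3 named here, 1119512, rose from 35.9 to 209.9 FPKM. The gene that fell was 1162708, at 29.8 FPKM in the control and 5.88 FPKM in the deletion strain. The domain also occurs in oxidoreductases, and which of these genes, if any, is the partner of AreA is not given in the file.

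In the list of nitrogen assimilation enzymes, 7 of 49 tested genes rose and none fell, 1 transporter gene with an amidase domain having been left out. The rises were 14.3% of the list, beside 3.29% of all tested genes, and 3.25% of all tested genes fell. This difference rests on few calls and was not tested. Of the 7 risen genes, 4 carry an amidase domain, which is found in enzymes that release ammonia from amides but also in others. The 3 with the largest change were 1105555, at 6.77 and 30.9 FPKM, 1153259, at 7.58 and 29.4 FPKM, and 1171764, at 1.89 and 7.51 FPKM. By product name 1153259 is a subunit of a tRNA amidotransferase, and so is 1173930, the remaining gene with an amidase domain, at 5.67 and 14.1 FPKM. Of the other 3, 1 is an omega-amidase by name and 2 are cytochrome-type lactate dehydrogenases that a domain of glutamate synthase brought into the list. Thus no gene named for glutamine synthetase, glutamate dehydrogenase, nitrate or nitrite reductase, urease or arginase was called. The tested genes with these names were not counted apart, so no share can be set beside the 6.54% of all tested genes. Among the 32 tested genes of the list without an amidase domain, 23 had higher and 9 lower values. Their median log2 ratio was 0.36, beside 0.02 over all tested genes. Among 61 tested genes that the file lists as peptidases with a secretion signal, 2 fell (3.28%, beside 3.25% of all tested genes) and 1 rose (1.64%, beside 3.29%). These shares lay near or below the background. The signal alone does not show that a product acts outside the cell. The A4-type peptidase gene 1142023 fell from 47.5 to 4.21 FPKM. The aspartic peptidase gene 1118349, a cathepsin D by name, fell from 17.9 to 5.97 FPKM. Gene 1087628, a carboxylesterase rather than a peptidase by name, rose from 8.16 to 20.9 FPKM.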

How the data were processed

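Tools listed in the submitters' processing notes are Cufflinks, Cuffdiff 2.2.1, TopHat2, Trimmomatic and CASAVA 1.8.3, with no role stated. Genome build and gene models: not given in the sources used here. Per the file headers, the authors deposited 1 expression value per gene and strain, read as FPKM because Cuffdiff reports it, and the authors' q-value. The 2676 genes with a q of 1 were taken as not tested. A gene was called at a q under 0.05, as the design foresaw for a table without values per library; no test was added here. Log2 ratios use FPKM + 1, which understates changes of low genes. The number of transmembrane domains is the deposited one. Libraries of 1 strain may share a culture, as nothing says otherwise.

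Named were all called members, the 2 most abundant per family by the mean of both strains, the largest rise and fall per family among genes reaching 5 FPKM, and members with a q from 0.05 to 0.1; from the 4 other lists, up to 3 called genes. Members and lists were chosen with earlier results of these data known. Counting functions were tested on simulated data. Protein numbers matched 0 entries of the RefSeq gene table, so no coordinates or sequences are given. Python 3.11.15 with pandas 2.3.3 was used.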

Additional observations from a re-analysis of the deposited data

How the results depend on the processing

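Of 8 called members (7 lower, 1 higher), a q under 0.01 left 3 in all, 3 lower and 0 higher, and a q under 0.1 gave 2 higher. Other limits on level, domains or the authors' flag kept the counts within 1.5 times. The median log2 ratio of all members was -0.0590 with untested ones included, and that of Transp_cyt_pur -0.0863. Held to a mean of 5 FPKM, the medians were -0.0617 for AA_permease (0.02 before), -0.67 for OPT and -0.41 for Transp_cyt_pur. With upper quartile scaling the AA_permease median was -0.0196, and 27 rather than 23 of its 50 tested genes were lower, so the direction of this median depends on the setting. A pseudocount of 5 gave -0.30 for OPT and -0.52 for PTR2, and one of 0.1 gave -1.05 for PTR2. The share of abundant members below the control was 82.4% from 50 FPKM and 100% from 200 FPKM, settings chosen after seeing the data. No named gene changed direction with a pseudocount of 0.1 or with centring, and the counts in the other lists were within 1.5 times at a q under 0.1. No paired analysis was possible because the table holds 1 value per strain, and for the same reason no replicate could be left out. The depth is unknown.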

Other observations

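Other families of nutrient carriers were looked at after the members' values were seen. All 4 genes with a sulfate transporter domain had lower values in the deletion strain, and 2 of them fell: 1104385, at 4.57 and 0.692 FPKM in control and deletion strain, and 1181938, at 5.15 and 1.86 FPKM. Both stayed under the 10 FPKM that the authors' combined flag asks for. A group of 4 genes is too small to set against the 3.25% of all tested genes that fell. The most abundant of the 4, 1117334, had 124 and 93.3 FPKM and no call. Neither of 2 tested genes with the xanthine and uracil permease domain was called, the higher being 1157712 at 31.1 and 35.6 FPKM, nor was either of 2 tested genes with the sodium symporter domain SSF. Of 46 tested genes with an ABC transporter domain, 3 fell and none rose (median log2 ratio -0.22). Over all tested genes 3.25% fell and 3.29% rose. Of 36 tested mitochondrial carrier genes none was called (median -0.07), beside 6.54% of all tested genes. These counts of calls are too small to set against those shares.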
